A study of Mus musculus with 8 samples.

Results

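N6-methyladenosine (m6A) is the most common internal modification of mRNA. A nuclear complex built around METTL3 and METTL14 writes it, the demethylases FTO and ALKBH5 can remove it, and YTH-domain proteins bind it and affect splicing, translation and decay of the marked transcript. The writer prefers the sequence GGAC and its close variants, and marks are known to gather near stop codons, in long internal exons and at transcript starts. Hepatocytes make most plasma proteins in the endoplasmic reticulum (ER), and tunicamycin, which blocks N-linked glycosylation, overloads protein folding there and sets off the unfolded protein response through PERK, IRE1 and ATF6.

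The m6A peaks described here are those of wild-type mouse liver under that stress, all 5586 rows of the wild-type list out of 17876 peaks in the deposited lists of both genotypes. The wild-type mice (METTL14f/f, floxed and without deletion) and the knockout mice (METTL14Alb) had all received tunicamycin by intraperitoneal injection, 2 mg/kg for 24 h, so no unstressed liver was measured. Polyadenylated liver RNA was fragmented, and both the whole RNA (input) and the RNA pulled down by an m6A antibody were sequenced, with 2 libraries for each of 4 groups. Whether these are biological replicates is not said in the labels, which give no strain, sex or age either. The wild-type list holds 1 value per peak for both libraries together, so the peaks have no replicate spread and no test between peaks was made. A knockout list of 12290 peaks in 5861 genes was also deposited. The label Alb is taken as the albumin-driven deletion, which acts in hepatocytes, and other liver cells would keep the gene.

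The target gene checks the labels only weakly. Mettl14 had 79.8 and 99.7 normalised counts in the 2 input libraries taken as wild type. Which libraries these are, and the sign of the change, rest on a direction read from the peak lists, described below. The log2 change of Mettl14 in the authors' deposited table was -0.50 ± 0.41 (SE), with a DESeq2 adjusted p of 0.342. Where along the gene its reads lay is not known. The list labelled knockout held more peaks than the one labelled wild type, and both are called by their labels throughout. As to tissue, 12 of 12 hepatocyte markers were measured, all with a mean of at least 100 normalised counts. All markers of Kupffer cells and macrophages (13 of 13), sinusoidal endothelium (10 of 10) and stellate cells (10 of 10) reached that mean too, with 3 of 8 cholangiocyte, 1 of 8 lymphocyte and none of 6 neutrophil markers. By wild-type input alone the median was 159 for stellate markers (636 over all inputs) and 15.2 for cholangiocyte markers (95.2). It was 615 for Kupffer cell and macrophage markers (642) and 251 for endothelial markers (284).

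Sequences of peaks over transcript starts are shown first, since many of the strongest peaks of the list lay near gene starts. Of 43 placed peaks scoring 1000 or more, 23 had their centre within 200 bases of the outer start of the gene. Not all of these cover the first bases of a transcript, and peaks that do scored little above the others (median 28.9 against 23.9). The 5′ ends come from RefSeq on GRCm38.p6, the assembly of the mm10 build of the files. Each line is the stretch of the first 50 bases of a transcript around a GGAC that the peak covered, 5′ to 3′ on the transcribed strand, with GGAC in capitals.
Mpnd, score 2090, chr17:56009225-56009250 (+): gaggctgtgccgGGACacagcgtcca
Txnrd1, score 1228, chr10:82859235-82859255 (+): gcgggaggtgcgGGACgccga
Stard5, score 441, chr7:83632031-83632058 (+): cgttggcggaatGGACccgtcctgggcc
Yars, score 230, chr4:129189909-129189936 (+): tgcaacccgacgGGACtagcgtgacagt
Prmt1, score 205, chr7:44986392-44986419 (-): gggctgggctgaGGACcctctggtaaaa
Hspa5, score 14.2, chr2:34772106-34772133 (+): caacactgacctGGACacttgggcttct
The score is the authors' enrichment score, a ratio taken as antibody-enriched over input RNA. The transcript start is the outer end of the gene span for Mpnd, Stard5, Prmt1 and Hspa5, and lies 25255 bases inside it for Txnrd1 and 169 bases for Yars. The first 5 are among the strongest peaks of this kind and Hspa5, the ER chaperone BiP, is a stress gene of the list.

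Some strong start peaks had no m6A consensus word in the covered part of this window. The consensus DRACH stands for 18 words of 5 letters: A, G or T, then A or G, then AC, then A, C or T. Txnrd1 above is such a case, since its GGAC is followed by G and its covered part held no DRACH word. The first 28 bases of a transcript of 3 such genes follow; its start lies 71 bases inside the gene span for Dpyd and 70 bases for Denr, and at its outer end for Mlec.
Dpyd, score 5286, chr3:118562180-118562207 (+): agtgctggggcaagctgaggctttggtg
Mlec, score 1959, chr5:115158149-115158176 (-): ggaggaggaggaggaggaggccctgaga
Denr, score 1912, chr5:123907275-123907302 (+): gaatttcggggcagccgtggccgggaag
The peaks of Dpyd and Mlec were 99 bases long and ran on past the window, where no letters were read. No match says only that the words are not in the covered window.

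In all, 285 peaks in 284 genes covered at least 20 of the first 50 bases of a RefSeq transcript start. Genes can have several such starts: 170 of the 285 (59.6%) were at the outer end of the gene span, 216 within 200 bases of it and 43 more than 1000 bases inside. Distances from the gene start given below are all from the outer end of the span. GGAC stood in 26.3% of their start windows, against 20.5% of 9465 start windows of genes with a mean of at least 100 and 18.9% of all 32851 windows. GGACT, a word of the GGAC set, stood in 7.37%, against 5.41% and 5.76%. DRACH, which takes in every GGAC followed by A, C or T, stood in 52.6%, against 42.8% and 54.4%, so the order depends on the comparison. The first base was A in 35.8% of these windows, against 28.5% in the expressed genes and 34.4% in all. Of these peaks 70 covered a GGAC. Peaks over a start window had a median score of 28.9 against 23.9 for the others, and 40.4% of them were split over several blocks, against 19.4%.

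The list named 2988 genes, 18.5% of the 16133 genes in the input table (percent of all genes called with a peak, 18.5%), and 32.4% of the 9202 genes with a mean of at least 100. Nearly all were protein-coding. A peak was listed for 2952 of 15124 protein-coding genes (19.5%) and for 15 of 721 long non-coding RNAs (2.08%). These shares were not matched for abundance, with which presence of a peak rises. Genes with a peak accounted for 78.4% of the summed wild-type input signal.

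Presence of a peak rose steeply with transcript abundance. Genes were put in 10 equal classes by the deposited mean, a normalised read count over the 4 input libraries that is not corrected for gene length and includes the knockout libraries. No gene of classes 1 to 3, up to a mean of 32.4, had a peak, with a 95% Wilson upper limit of 0.238% or less in each. In class 4, 3 of 1613 genes did. The share was 3.04% in class 5, 9.3% in class 6, 17.9% in class 7, 30.9% in class 8 and 49.3% in class 9. In class 10, from a mean of 1343 up, 1203 of 1614 genes had a peak (74.5%, 95% Wilson interval 72.4 to 76.6%). Intervals cover counting over genes only. The lowest mean of a gene with a peak was 46.5 (Wfdc17). Reads per gene rise with abundance by construction, and their part in this slope was not tested.

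**Figure D1:**
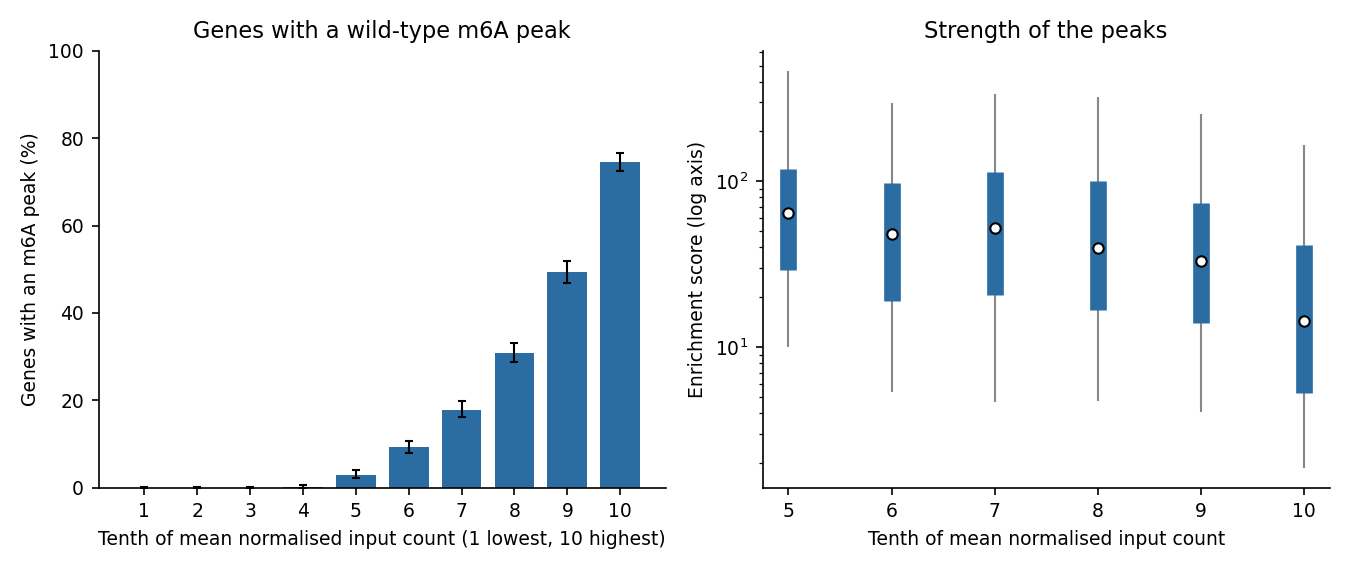
Left, percent of genes with a wild-type m6A peak (bars, with 95% Wilson intervals) in 10 equal classes of mean normalised input count; right, authors' enrichment score of the peaks in classes 5 to 10 on a log axis (circles, median; thick bars, quartiles; thin lines, 5th to 95th percentile). The share climbs from 0% in the 3 lowest classes to 74.5% in class 10, while the median score goes from 64.4 in class 5 to 14.4 in class 10.

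Strength ran the other way. The median score was 64.4 in class 5, 48.3 in class 6, 52.3 in class 7, 39.7 in class 8, 33.1 in class 9 and 14.4 in class 10. Within class 10, split into 5 parts by mean, the share of genes with a peak went from 65.6% to 91% and the median score from 29.1 to 6.83. Across the 5586 peaks the Spearman correlation of score with mean count was -0.39; peaks of 1 gene share its mean, and the input reads enter both numbers. Wild-type input libraries ranked the genes alike (Spearman 0.98 over 15481 genes whose counts per library could be recovered), and 25 of 2445 such genes with a peak were more than 2-fold apart between the libraries.

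Of the 100 most abundant genes, 95 had a peak, with 355 peaks at a median score of 4.37 and 69 peaks below 2. Of the 12 most abundant genes, 6 besides Alb encode plasma proteins, with highest scores of 2.48 to 11: Fgb (fibrinogen beta chain, 2.48), Ahsg (fetuin-A, 3.1), Apoe (apolipoprotein E, 3.62), C3 (complement, 7.01), Trf (transferrin, 7.79) and Hpx (hemopexin, 11). Alb, encoding serum albumin, was above these with 3 peaks at 42.3, 35.2 and 1.84, the strongest 69 bases from the gene start. The 5 genes without a peak were Lars2, Apoa2, Mup7, Ttr (transthyretin) and Aldh2. Rn45s, the 45S ribosomal RNA precursor, was the highest of all in the table and had 5 peaks up to 14.9, in RNA selected for poly(A) tails.

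Scores over the whole list ran from 0.69 to 6283, with quartiles of 8.35, 24.2 and 63. A score of at least 10 was given to 3983 peaks (71.3%), of at least 100 to 892 (16%) and of at least 1000 to 44. At the other end 195 peaks scored under 2 and 12 under 1, below equal signal. The authors' p-value was above 0.05 for 32 listed peaks in 29 genes, 26 of these peaks in class 10. Nnmt (nicotinamide N-methyltransferase) had the weakest peak at 0.69, and Ahsg one at 0.711. Many of the highest scores were exact fractions with a small denominator. A ratio with a denominator of at most 20 gave the exact score of 1339 peaks (24%, tolerance 1e-09), among them 55 of the 100 strongest. Their median score was 64.3, against 17.1 for the others. Score and -log10 p went together only loosely (Spearman 0.16 over 5488 peaks with a p above 0).

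Most genes had 1 peak. The counts were 1565 genes with 1 peak (52.4%), 789 with 2, 335 with 3, 163 with 4 and 136 with 5 or more, a mean of 1.87. The 136 genes held 786 peaks (14.1%), and 118 of them were in class 10. Peaks per gene with a peak went from 1.2 in class 5 to 2.38 in class 10. Most peaks were short: 2858 peaks (51.2%) were exactly 49 bases long, and the longest was 791. A single block was given for 4440 peaks (79.5%); 1146 were split over 2 to 7 blocks.

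Rrbp1, a ribosome-binding protein of the ER membrane, had the most, 11 peaks. Its strongest scored 193 and 145, and the other 9 scored 1.45 to 8.02. The peak of 145 lay 107 bases from the gene start (chr2:144011165-144011213). The peak of 193 was in 2 blocks over a span of 20880 bases (chr2:143990234-144011113). Its centre, 10622 bases from the start, falls where no block lies, and its end nearer the start lies beside the peak of 145. Apob, the structural protein of very-low-density lipoproteins, had 10 peaks and none above 11.9; 9 of them lay between 28849 and 34732 bases from the start. Prrc2a, an m6A reader, differed from both: all 9 of its peaks scored 31.5 to 254, between 5700 and 10092 bases from the start. Malat1, a nuclear long non-coding RNA with known m6A, had 9 peaks from 5.6 to 181, the strongest 25 bases from its start. Lonp1, the mitochondrial matrix protease, had 1 peak of 417 near its start and 7 of 2.77 to 18.5. Many peaks on 1 gene thus came as 1 or 2 strong ones among weak ones in Rrbp1 and Lonp1. In Prrc2a all scored 31.5 or more, and in Apob all were weak.

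**Figure D2:**
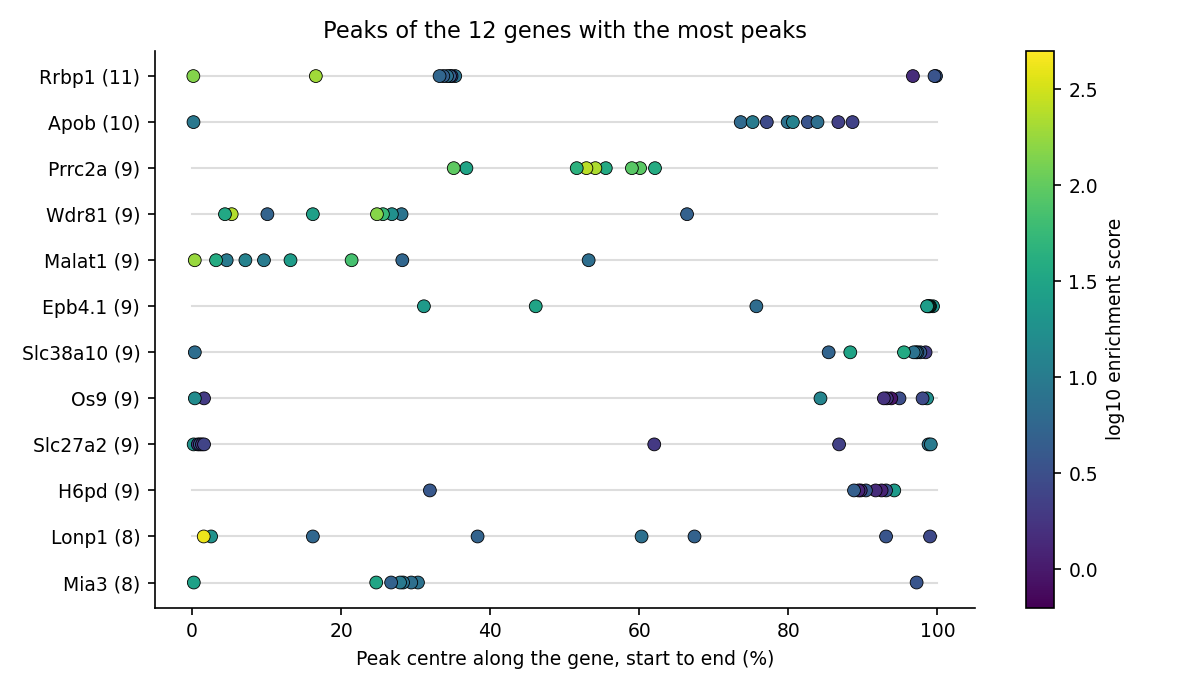
Peaks of the 12 genes with the most wild-type m6A peaks (number in parentheses), placed by peak centre in percent of the gene from start to end; the colour is log10 of the authors' enrichment score. The 9 peaks of Prrc2a lie between 31.5 and 254, whereas the 11 of Rrbp1 hold 2 above 100 and 9 at 8.02 or less. The centre of a peak in several blocks can fall where no block lies, as for the peak of 193 on Rrbp1.

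Peaks lay mostly at the ends of genes. Of 5545 peaks that could be placed on a RefSeq gene span, 25.4% had their centre in the first 10% of the gene and 30.5% in the last 10%. Each of the 8 parts between held 3.75 to 8.89%. Exons and untranslated regions were not used here, so the span includes introns, and the centre of a peak in several blocks is that of its outer ends. By its first base 32% of peaks fell in the first 10%, and by its last base 22.7%. Peaks in the first 10% had a median score of 41.6 and peaks in the last 10% of 22.2. Both ends carried a peak in 299 genes, of 1197 with one in the first 10% and 1134 with one in the last.

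The start itself stood out from the end. Within 200 bases of the gene start lay 698 peaks (12.6%), and within 200 bases of the gene end 162 (2.92%). Within 1000 bases the shares were 26.7% and 21.5%. Peaks within 200 bases of the start had a median score of 39.8 against 22.5 elsewhere. By class the medians were 30.2 and 12.9 in class 10, 39.7 and 32.2 in class 9, 70.1 and 37.2 in class 8, 70.2 and 51.7 in class 7, 52.7 and 44.4 in class 6, and 60.4 and 67.3 in class 5, where only 9 such peaks lay. The share of peaks within 200 bases of the start was 7.68% among peaks scoring under 10, 12.3% from 10 to under 100, 20.6% from 100 to under 1000, and 53.5% (23 of 43 placed) at 1000 or more.

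**Figure D3:**
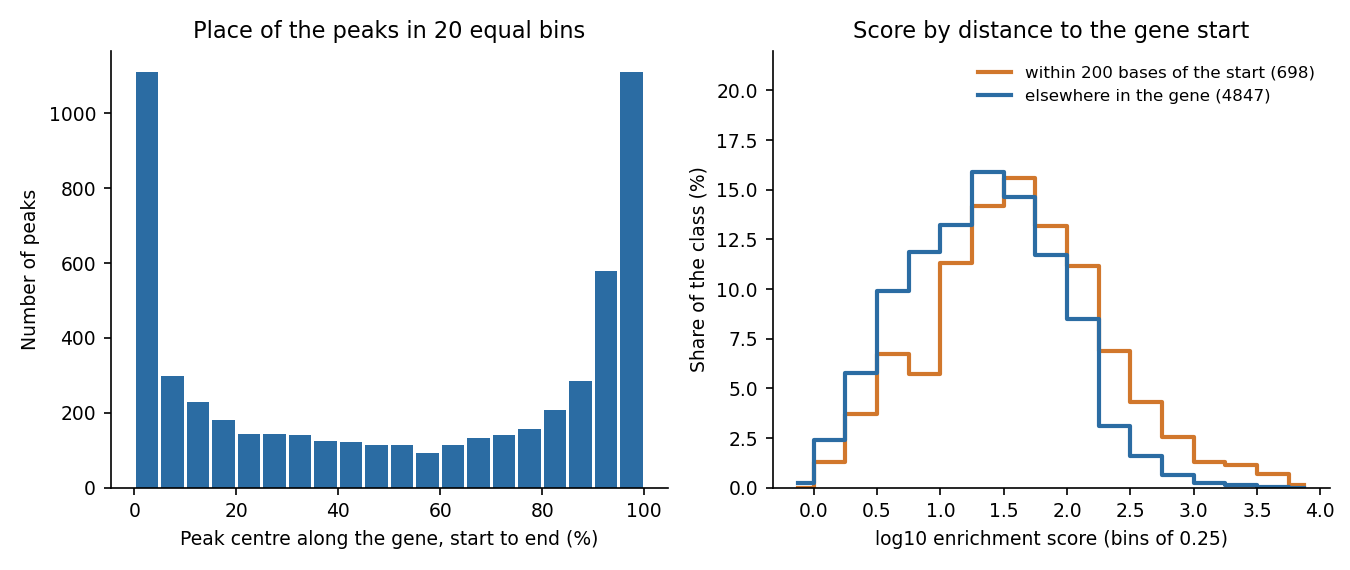
Left, number of wild-type m6A peaks by the place of their centre along the gene, start to end, in 20 equal bins; right, distribution of log10 enrichment score for the 698 peaks within 200 bases of the gene start and the 4847 placed elsewhere, in percent of each class. Both ends of the gene hold the most peaks, and the start class lies further right, with medians of 39.8 and 22.5.

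The strongest peak of each gene was ranked among genes with a mean of at least 100, and 10 of the 15 highest lay within 200 bases of the gene start. All 15 had a single block, and 8 were 49 bases long. Ell2, an elongation factor of RNA polymerase II, led with 6283 at 100 bases from its start (chr13:75707535-75707633), followed by a peak of 844 at 225 bases. Its input counts were 2171 and 2094 in the 2 libraries. Dpyd, the enzyme that starts pyrimidine breakdown, had 5286 at 119 bases, and 109 and 13.8 further along. Lgr4, the R-spondin receptor of the Wnt pathway, had 4526 at 75 bases from the start (chr2:109917698-109917746), a score whose denominator was 1. Sel1l, the partner of the ubiquitin ligase HRD1 in ER-associated degradation, had 2814 at 124 bases from its start (chr12:91849009-91849057), with 4 further peaks of 21.5 to 64.3 at 2950 to 3750 bases from its end. Among the 15, Cyb5r3 (NADH-cytochrome b5 reductase, 4304), Magt1 (a magnesium transporter and oligosaccharyltransferase subunit, 3075) and Dbt (a subunit of branched-chain keto acid dehydrogenase, 2432) had their strongest peak toward the gene end, 675, 1044 and 598 bases from it. Ehmt2, the histone H3 lysine methyltransferase G9a, had 2248 at 43% of its span, a score whose denominator was 2. In all, 7 of the 15 scores, those of Lgr4 and Ehmt2 among them, were exact fractions with a denominator of at most 20.

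Gene groups were read against abundance, since presence of a peak moves so much with it. For each of 78 groups (35 pathways and 43 families told by their symbols) the share of measured members with a peak is given beside the share over all genes of the same abundance classes, here the abundance-matched share. Of the 78, 42 lay above their abundance-matched share. The 95% interval of the share left out the abundance-matched one in 4 of 78 groups: ER chaperones and urea cycle above it, cytosolic ribosomal proteins and major urinary proteins below it. With 50 finer classes it did so in 3, all below: both of the latter and collagens. With 10 classes made from wild-type input alone it did so in 3, and urea cycle was no longer among them. Of 78 intervals at 95%, some would leave out the matched share by counting alone, and their number was not corrected for. Every other pathway or family named below had, with 10 classes, an interval that included its abundance-matched share, so its excess or deficit is not beyond counting over genes. Strength is given as the median score, and as the median rank of a group's peaks among all peaks of the same abundance class, where 50% is the middle of the class. These are descriptions of 1 list, and no group was tested.

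The ER stress groups came out unequal. ER chaperones and disulfide isomerases had a peak in 22 of 25 members (88%, interval 70 to 95.8%; abundance-matched 67.9%, and 76.8% with 50 classes), but at a median score of 5.65 and a median rank of 26%. Counting only peaks at or above the median score of the list, the group was level with its abundance-matched share (a difference of -0.08 percentage points). Hspa5 had 6 peaks, at 21.3, 14.2, 1.87, 1.6, 1.58 and 1.49, the first 567 bases from the gene end and the second 173 bases from the start. Hsp90b1 (GRP94) had 5, of which 1 scored 78.1 and the others 3.82 to 8.1. The peak of 78.1 was in 2 blocks over a span of 1107 bases, with its centre 553 bases from the start. P4hb, a disulfide isomerase, had 5 from 1.71 to 27.4. The 4 peaks of at least 100 were those of Manf, a secreted ER-stress factor, with 514 at 24 bases from its start, of Ero1lb, an ER oxidase, with 218, of Dnajc3, the PERK inhibitor p58IPK, with 200, and of Canx (calnexin), named after its values were seen, with 113. Erp44 had none at counts of 2069 and 2662.

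Factors of ER-associated degradation had a peak in 18 of 27 (66.7%; abundance-matched 60.1%), with 3.28 peaks per gene with a peak and a median rank of 51.4%. Beside Sel1l, Nploc4 (a cofactor of the p97 segregase) had 327 and 32.9. Edem3, a mannosidase that marks misfolded glycoproteins, had 4 peaks of 76.6 to 246 between 3524 and 3946 bases from its end. Os9, a lectin that brings glycoproteins to HRD1, had 9 peaks of 0.922 to 17.2.

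Targets of IRE1 and XBP1 had a peak in 16 of 27 (59.3%; abundance-matched 66.7%). Dnajb9 (ERdj4, a BiP co-chaperone) had 802 at 48 bases from its start, over chr12:44209971-44210068, and 48.2 further on, at input counts of 2987 and 3932. Serp1, a protein of the translocon, had 684 and 10.5, and Sec62, of the translocon too, had 4 peaks of 34.2 to 240. The PERK, ATF4 and CHOP targets had a peak in 16 of 34 (47.1%; abundance-matched 41.2%). Ddit3, which encodes CHOP, had 14.5 at 196 bases from its end (chr10:127295999-127296191) and 1.97 near its start. Its normalised counts were 723 and 1919, a difference of more than 2-fold between the wild-type libraries. Sesn2, a stress-induced inhibitor of mTORC1 signalling, had 423 and 48.3. Ppp1r15b, the constitutive partner of phosphatase 1 for eIF2α, had 4 peaks of 16.5 to 166, whereas its stress-induced paralogue Ppp1r15a had none at counts of 321 and 543. Atf3 had none either, at 47.4 and 413. Of the 16 sensors and transcription factors of the response, 6 had a peak (37.5%; abundance-matched 41.9%), among them Atf6 with 182 and 68.9 and Mbtps1, the site-1 protease that cleaves it, with 179.

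**Figure D4:**
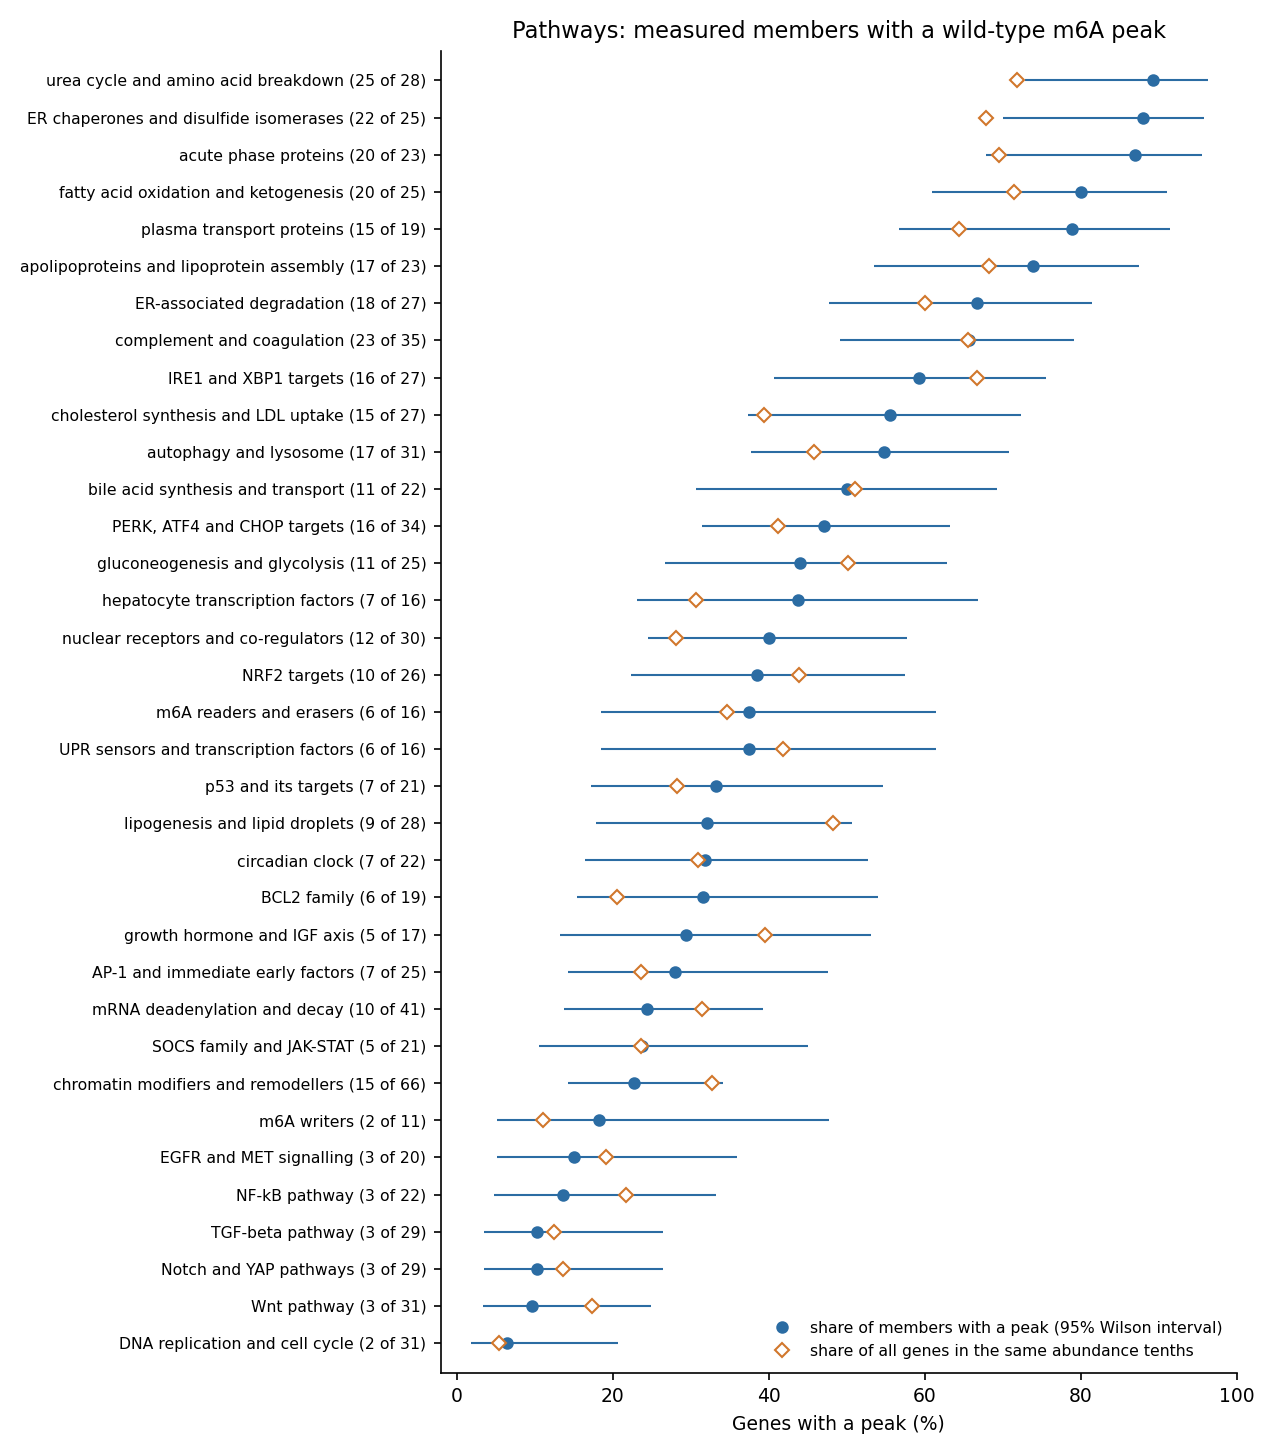
Percent of measured members with a wild-type m6A peak for 35 pathways (blue circles with 95% Wilson intervals, counts in parentheses) beside the share of all genes in the same abundance classes (open diamonds). ER chaperones, with 22 of 25, lie above the matched 67.9%. Chromatin modifiers, with 15 of 66, lie below the matched 32.8%, but their interval of 14.3 to 34.2% includes it.

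Among hepatocyte programmes, some lay above their abundance-matched share and others at or below it. Complement and coagulation (23 of 35, 65.7%; abundance-matched 65.6%) and bile acid synthesis and transport (11 of 22, 50%; abundance-matched 51.1%) were level with it, and gluconeogenesis and glycolysis (11 of 25, 44%; abundance-matched 50.2%) lay below. Urea cycle and amino acid breakdown had a peak in 25 of 28 (89.3%, interval 72.8 to 96.3%), at a median score of 7.98. The abundance-matched share was 71.8%, with 82.8% by 50 classes and 73.7% by wild-type input alone. Gls2 (glutaminase 2) had 206, Gpt2 (alanine transaminase 2) 144 with 6 further peaks, and Tdo2 (tryptophan dioxygenase) 128; Slc25a13 and Kynu had none. Acute phase proteins had a peak in 20 of 23 (87%; abundance-matched 69.5%), with a median score of 3.82 and a median rank of 17.3%. With peaks at or above the median score alone they were 23.5 percentage points below the abundance-matched share (-23.5), and plasma transport proteins (15 of 19, 78.9%; abundance-matched 64.4%, and 75.9% with 50 classes) were below it too (-16.6). Apolipoproteins (17 of 23, 73.9%; abundance-matched 68.3%) were below it with 50 classes (76.7%) and, at or above the median score, by more (-22.8). Fatty acid oxidation had a peak in 20 of 25 (80%; abundance-matched 71.5%), led by Acadvl, the very-long-chain acyl-CoA dehydrogenase, with 724 at 98 bases from its start. Hadha, which carries later steps of the same cycle, had none.

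Cholesterol synthesis and LDL uptake had a peak in 15 of 27 (55.6%; abundance-matched 39.4%), among them the regulator Srebf2 with 427 and Lss, the lanosterol synthase, with 127. Lipogenesis and lipid droplets had a peak in 9 of 28 (32.1%; abundance-matched 48.2%), none above 88.4 (Dgat1), and Scd1 and Acly, a desaturase and the enzyme that makes cytosolic acetyl-CoA, had none. Hepatocyte transcription factors had a peak in 7 of 16 (43.8%; abundance-matched 30.7%), led by Gata4 with 452 at counts of 240 and 224. Hnf4a, the master regulator among them, had 35.9 and 29.2. Nuclear receptors and their co-regulators had a peak in 12 of 30 (40%; abundance-matched 28.1%), among them Ncoa2 with 272 and Ppara, the fasting-response receptor, with 4 peaks of 19.2 to 128. Of signalling receptors, Insr had 457 at 280 bases from its start, Ghr 135 at 222 bases, and Egfr 172, 87.7 and 26.4.

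Peaks on regulators of chromatin and of mRNA decay ranked high by score, which goes only loosely with the authors' p-value. Chromatin modifiers and remodellers had a peak in 15 of 66 (22.7%; abundance-matched 32.8%, and 27.9% by wild-type input alone). The median score of their 24 peaks was 161, the median rank was 92.2%, and 15 of the 24 scored at least 100. With peaks at or above the median score alone the group was level with its abundance-matched share (a difference of 0.20 percentage points). The family of Setd, Kmt and Kdm genes had a peak in 9 of 34 (26.5%; abundance-matched 27.1%). Beside Ehmt2, Chd4 (a nucleosome remodeller) had 937 and 39, and Setd1b (an H3 lysine 4 methyltransferase) 739 and 248; Nsd1 and Chd3 had none. Deadenylation and decay factors had a peak in 10 of 41 (24.4%; abundance-matched 31.5%), with a median score of 124 and a median rank of 89.2%. Upf1, the helicase of nonsense-mediated decay, had 1191, 384 and 87.4, at 302 to 873 bases from its end. Cnot1, the scaffold of the deadenylase complex, had 491, and Cnot10, another subunit, 698 and 256. By the authors' p-value, both Setd1b peaks and the 256 of Cnot10 were less significant than the list median. The strongest peaks of Ehmt2, Chd4 and Upf1 were more significant than it. In the Wnt pathway 3 of 31 members had a peak (9.68%; abundance-matched 17.4%), and 6 of its 7 peaks scored at least 100: Lgr4, Ctnnb1 (β-catenin) with 908, 157 and 6.89, and the co-receptor Lrp6 with 198 and 133. Cdkn1a, the p53 target p21, had 585, 360 and 34.4 at input counts of 323 and 299.

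Among the m6A genes themselves, writers had a peak in 2 of 11 (18.2%; abundance-matched 11.1%), namely Mettl16 (66.2), which methylates U6 snRNA, and Mettl5 (33.8), which methylates 18S rRNA. Mettl3, Mettl14, Wtap and Zc3h13, members of the complex that marks mRNA, had none. Readers and erasers had a peak in 6 of 16 (37.5%; abundance-matched 34.6%) at a median rank of 77%. Both erasers were marked, Fto with 323, 209, 67.3 and 62 and Alkbh5 with 211, 132 and 37.3, the latter all between 473 and 697 bases from its start. The readers with a peak were Prrc2a, Ythdf1 (78.3), Ythdc1 (51.7) and Hnrnpa2b1 (58.7, 9.4 and 5.85). Ythdf2 (counts 360 and 384), Ythdf3 (792 and 828) and Hnrnpc (1270 and 1162) had none.

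Of 76 cytosolic ribosomal protein genes 21 had a peak (27.6%, interval 18.8 to 38.6%; abundance-matched 65.5%), at a median score of 4.09 and a median rank of 16.6%. Rpl34 was the strongest with 94.2, Rps16 had 44.4, and Rps3, at a mean of 9190, had none. Mitochondrial ribosomal proteins had a peak in 28 of 77 (36.4%; abundance-matched 32.1%), at a median rank of 14.3%. Nuclear subunits of oxidative phosphorylation stood at their abundance (50 of 88, 56.8%; abundance-matched 55.9%). With peaks at or above the median score alone, these mitochondrial groups were below it, with differences of -13.4 and -17.2 percentage points. Gene span moved with score: over class 10, protein-coding genes in 4 equal parts by span had a peak in 75.1, 80.9, 80.9 and 62.6% from the shortest to the longest, with median best scores of 10.9, 24.5, 49.5 and 57.2. The part of span in the group values was not tested.

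Major urinary proteins had a peak in 2 of 20 (10%; abundance-matched 60.5%): Mup20 with 5.87 and 2.34, and Mup3 with 3.16, 1.16 and 0.949. These genes are near-identical copies whose reads can be shared or dropped in counting, so their values are uncertain. Zfp zinc finger genes had a peak in 14 of 348 (4.02%; abundance-matched 6.1%), with 5 peaks up to 438 on Zfp746. Collagens had 1 of 40 (2.5%; abundance-matched 12.8%, and 6.85% with classes made from wild-type input alone), which was Col18a1, a collagen that hepatocytes make, with 8 peaks of 0.785 to 31.5. Col4a1 (783 and 695) and Col4a2 (716 and 823) had none. hnRNP genes had a peak in 11 of 20 (55%; abundance-matched 40.1%) at a median rank of 76.8%, led by Hnrnpu with 575. Aminoacyl-tRNA synthetases had 13 of 35 (37.1%; abundance-matched 39.7%) at a median rank of 80.2%, led by Aars with 506. Solute carriers (76 of 311, 24.4%; abundance-matched 21.5%) and cytochrome P450s (26 of 94, 27.7%; abundance-matched 29.7%) stood near their abundance; Cyp2e1 had 4 peaks of 0.868 to 4.18 and Cyp3a11 1 peak of 75.1.

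**Figure D5:**
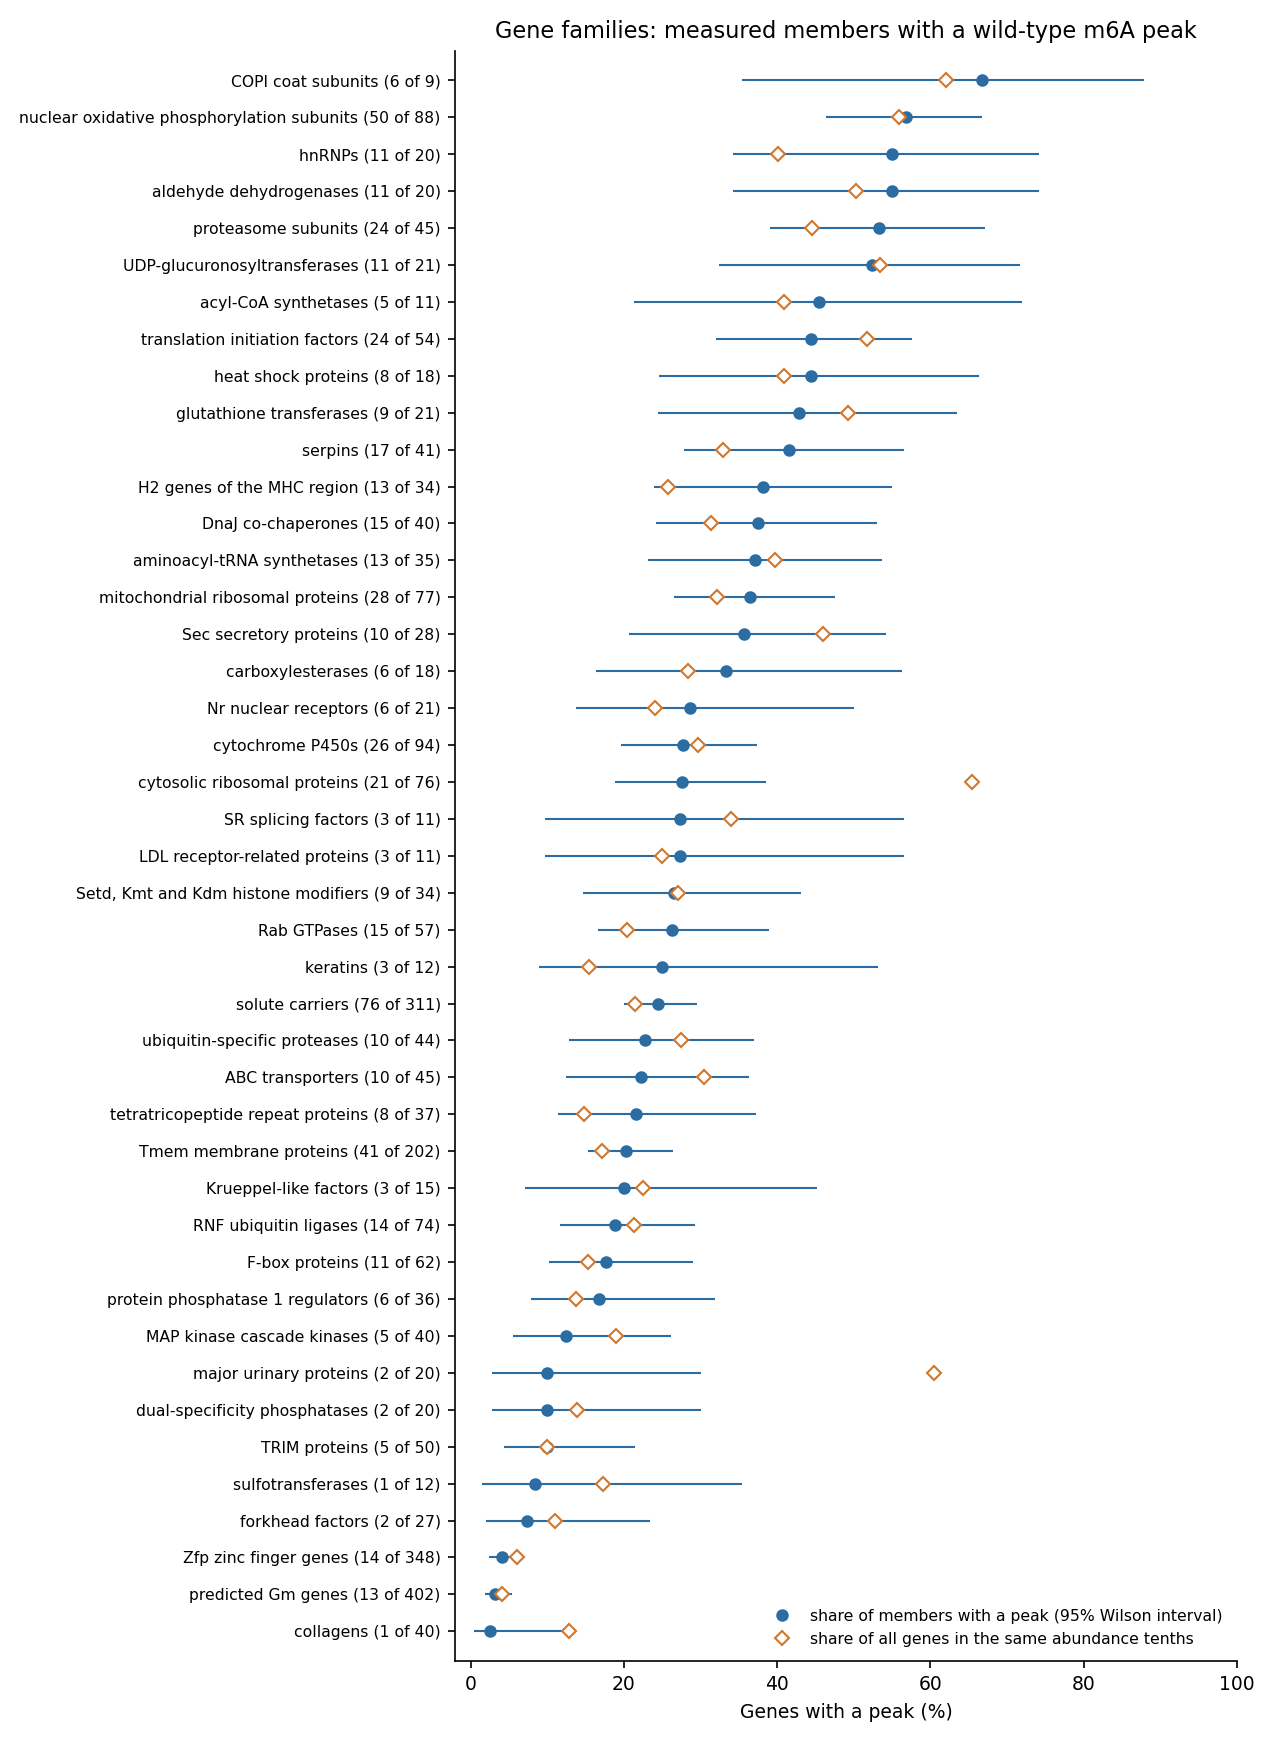
Percent of measured members with a wild-type m6A peak for 43 gene families (blue circles with 95% Wilson intervals, counts in parentheses) beside the share of all genes in the same abundance classes (open diamonds). Cytosolic ribosomal proteins (27.6% against 65.5%) and major urinary proteins (10% against 60.5%) lie furthest below their abundance-matched share.

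Cell type markers of the liver followed their abundance in part. Hepatocyte markers had a peak in 11 of 12 (91.7%; abundance-matched 74.5%, and 89.6% with 50 classes), with Ttr the exception. Kupffer cell and macrophage markers had a peak in 7 of 13 (53.8%; abundance-matched 31.5%), among them Csf1r (71.5), Marco (49.5) and C1qc (44.1), and sinusoidal endothelial markers in 3 of 10 (30%; abundance-matched 22.5%), among them Kdr (107). Stellate cell markers had a peak in 0 of 10 (interval 0 to 27.8%; abundance-matched 33.4%, and 20.7% by wild-type input alone), with Dcn at counts of 2979 and 2341 and Ecm1 at 2774 and 2240. No lymphocyte (0 of 8) or neutrophil (0 of 6) marker had one. Intervals of hepatocyte (64.6 to 98.5%), Kupffer cell and macrophage (29.1 to 76.8%) and endothelial markers (10.8 to 60.3%) included their abundance-matched shares. Without a peak were, among others, Cd68 and C1qb of Kupffer cells and macrophages, and Stab1 and Stab2 of endothelium. Of cholangiocyte markers 1 of 8 had a peak (12.5%; abundance-matched 12%), Spp1 (osteopontin), with 694 at 25 bases from its start. In bulk liver, fewer cells of a type and less RNA per cell cannot be told apart.

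Genes marked in wild type were set beside the authors' deposited table of the inputs, read as knockout over wild type. The numerator is not stated there, and was read from the lists: of 347 genes with a log2 change above 2, 156 had a peak in the knockout list alone and 0 in the wild-type list alone. Of 403 genes below -2, 30 had one in the knockout list alone and 46 in the wild-type list alone, a weaker split. The wild-type inputs enter both the list and the table. Because the sign was itself set by where peaks were listed, the counts of lower and higher genes below are partly fixed in advance. They give no independent evidence of direction. In the authors' deposited table, 1538 of the 2988 genes (51.5%) were lower and 304 (10.2%) higher at a DESeq2 adjusted p under 0.05, against 22.2% lower and 20.4% higher of all 14257 tested genes. In class 10, 67.6% of genes with a peak and 47.7% of those without were lower in the authors' deposited table. The split depends on scaling: with the genotypes set to equal total counts, which moves every log2 change by 0.82, 588 of the 2988 were lower and 1217 higher, and of all 14257 genes 1049 were lower and 7303 higher. In class 10 the shares lower were then 33% with a peak and 21.4% without. Of the wild-type peaks 4065 (72.8%, median score 30.1) touched a peak of the knockout list and 1521 (median 13) touched none.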

How the data were processed

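HISAT2 2.1.0, DESeq2 1.18.1 and mm10 stand in the submitters' processing notes without their roles; the counter, annotation and peak caller were not given in the sources used here. In the deposited peak list the enrichment score is taken as a ratio, and a value from 0 to 1 per peak as the authors' p-value, not stated to be adjusted. In the deposited input table the mean is a signal (counts over size factors), the fold change and its error are log2 values, the test value is a score, and p-values are the authors'. The authors' files give 1 list per genotype; the depth of the antibody libraries is unknown. The peak list of the knockout was used only for overlap (bedtools 2.31.1, same strand, 1 base) and for the direction of the fold change. Exons, untranslated regions and motifs beyond gene starts were not analysed here.

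Counts of the 2 wild-type inputs, called A and B because the digits carry no replicate number, were recovered from the digits of the mean for all 15481 genes with a mean up to 3000 (96%); on simulated data 15175 of 15175 were right. They sum to 5416822 and 4343317 reads. That these 2 libraries are the wild-type ones follows from the direction of the fold change, which was read from the peak lists. Where 2 counts are given for a gene they are these, after division by size factors of 0.9275 and 0.7426, A first. Gene spans and starts are RefSeq's, matched by symbol for 2977 of 2988 genes. Wilson intervals are at 95%. Gene groups, alternatives and members were chosen with earlier results of these data known, and family patterns were corrected after values were seen. Named genes are Ddit3, the writers, readers and erasers; the 15 strongest; the 12 with the most peaks; the 12 most abundant; per group up to 3 strongest and 2 most abundant without a peak; the 5 weakest peaks; and the 5 of the 100 most abundant without a peak and genes of printed sequences, chosen after their values were seen. Python 3.11.15, pandas 2.3.3, numpy 2.4.6, scipy 1.17.1 and matplotlib 3.10.9 were used. Some genes that this rule names are not reported here.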

Additional observations from a re-analysis of the deposited data

How the results depend on the processing

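With only peaks at or above the median score, 2793 peaks in 1990 genes were left and 43.2% of genes in abundance class 10 had one, as fewer peaks must give. The share in class 5 was 1.61% by wild-type input mean, 1.69 to 1.73% with 1 wild-type input left out, and 6.94% among genes with an adjusted p. In class 10 these gave 74.4 to 75.5%. The share of peaks in the first 10% of the gene was 32% by first base and 22.7% by last base. For start windows, GGAC gave 26.3% and DRACH 52.6% where GGACT gave 7.37%, being wider words. At least 2-fold, 122 genes with a peak (4.08%) were higher and 871 (29.1%) lower in knockout, against 14.9% and 12.6% of all tested genes. With total-count scaling, chosen after seeing the data, and no such fold limit, 1217 were higher and 588 lower. Of 310 recomputed differences between a group and its abundance-matched share, 38 changed side, 25 of them with only peaks at or above the median score. A group whose interval left out the matched share turned once (ER chaperones, -0.0816 percentage points). With p at most 1e-10, 3896 peaks in 2257 genes were left; with a score of at least 2 and p under 0.05, 5391 in 2971; in 1 block, 4440 in 2587. Both cuts on p were chosen after seeing the data. No paired analysis was possible because the peaks form 1 pooled list and the recovered libraries carry no replicate number.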
